A study of Mus musculus with 16 samples.

Results

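Inhibitory checkpoint receptors are surface proteins that restrain activated T cells, and 8 of their genes were followed here: Pdcd1, Lag3, Havcr2, Ctla4, Cd160, Cd244a, Cd200r1 and Cd101. Members were taken by name from the probe sets that the array annotation ties to exactly 1 gene symbol. Each had 1 such probe set, which gave 8 genes among the 22180 measured. The samples were CD8 T cells sorted from the spleens of female mice whose strain label reads C56BL/6. Effector cells, gated as CD44+CD127-, came from Il4i1 knockout (KO) or wild-type (WT) chimeras, and so did memory cells, gated as CD44high CD127high. That makes 4 groups, with 4 arrays in each. KO and WT name the bone marrow of the chimeric mice, and mice of both kinds carried transplanted chronic lymphocytic leukaemia (CLL) cells of the Eµ-TCL1 mouse model. RNA was taken 5 weeks after transplantation, so no group is free of leukaemia. In such chimeras the cells that grow from the donor marrow carry the genotype, and host cells that survive do not; the labels give neither the share of each nor the age of the mice. They also leave unsaid whether arrays of 1 group came from different mice. P-values therefore measure the spread between these samples, which may be technical.

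T cells put inhibitory receptors on their surface once their antigen receptor has fired, and they keep them there when antigen persists, as in chronic infection and cancer. Several of these receptors then damp signalling through phosphatases, adaptors or competition for shared ligands, and the state in which many are held at once is called exhaustion. Il4i1 encodes a secreted enzyme that oxidises aromatic amino acids. It is known mainly from myeloid and B cells, and it restrains T cells.

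All values are log2 expression on 1-colour Affymetrix arrays, so a difference of 1 is a doubling of signal. A test passed when its adjusted p, from limma with Benjamini-Hochberg adjustment over all genes, was under 0.05. Array medians lay between 4.1169 and 4.2214, and the correlation over genes was 0.9648 to 0.9744 between effector KO array 4 and the other arrays, against 0.9708 to 0.9943 for other pairs. For each receptor the difference between effector KO and effector WT is given with and without that array. The sort gene Il7r, which encodes CD127, averaged 5.69 in effector KO, 4.04 in effector WT, 11.08 in memory KO and 10.71 in memory WT. It was higher in effector KO than in effector WT by 1.65 ± 0.25 (SE, adjusted p = 0.0183). Cd44, the other sort gene, averaged 5.89 in effector KO, 6.17 in effector WT, 6.75 in memory KO and 6.81 in memory WT. Il4i1 has no probe set of its own symbol alone, so its RNA gives no check of the genotype. It lies on chromosome 7, which holds 0 of the 8 receptor genes.

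The promoter stretches of Pdcd1, Havcr2, Ctla4 and Cd244a are shown. The levels of these genes were lower on every memory KO array than on any memory WT array. That also held for Cd101, whose stretch is not shown, and for Lag3 and Cd200r1, which have no promoter entry. Each stretch is the 250 bases before the RefSeq gene start in build GRCm38.p6, read 5′ to 3′ on the strand of the gene. Capitals mark short motifs of factors that act in activated T cells: GGAAA for NFAT, TGTGGT for RUNX, TCACAC for T-box factors, CTTTGA for TCF and TGANTCA for AP-1, each searched on both strands. No motif found in these stretches overlapped another. Pdcd1 is at chr1:94052554-94052803 on the minus strand, Havcr2 at chr11:46454681-46454930 on the plus strand, Ctla4 at chr1:60908775-60909024 on the plus strand and Cd244a at chr1:171558943-171559192 on the plus strand.
Pdcd1: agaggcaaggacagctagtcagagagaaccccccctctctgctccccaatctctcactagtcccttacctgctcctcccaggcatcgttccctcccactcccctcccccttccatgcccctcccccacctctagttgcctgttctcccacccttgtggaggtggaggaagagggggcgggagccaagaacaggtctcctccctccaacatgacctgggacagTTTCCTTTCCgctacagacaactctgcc
Havcr2: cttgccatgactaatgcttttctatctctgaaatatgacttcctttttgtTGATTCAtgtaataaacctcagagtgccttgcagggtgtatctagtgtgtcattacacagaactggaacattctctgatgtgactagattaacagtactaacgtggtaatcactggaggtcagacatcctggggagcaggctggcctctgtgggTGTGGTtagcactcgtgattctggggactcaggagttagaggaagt
Ctla4: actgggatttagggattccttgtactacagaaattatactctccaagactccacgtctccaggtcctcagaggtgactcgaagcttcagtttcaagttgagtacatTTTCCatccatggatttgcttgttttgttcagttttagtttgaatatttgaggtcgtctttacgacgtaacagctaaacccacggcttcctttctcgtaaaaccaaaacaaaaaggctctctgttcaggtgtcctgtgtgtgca
Cd244a: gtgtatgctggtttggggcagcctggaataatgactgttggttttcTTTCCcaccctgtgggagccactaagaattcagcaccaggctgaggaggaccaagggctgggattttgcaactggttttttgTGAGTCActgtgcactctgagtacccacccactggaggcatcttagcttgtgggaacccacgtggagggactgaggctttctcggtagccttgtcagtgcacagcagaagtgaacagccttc
Pdcd1 holds the NFAT letters at 2 adjacent places on the opposite strand, 28 to 24 and 23 to 19 bases before the start. Havcr2 holds the AP-1 letters 200 to 194 and the RUNX letters 46 to 41 bases before the start. Ctla4 holds the NFAT letters on the opposite strand 144 to 140 bases before the start. Cd244a holds the NFAT letters 204 to 200 bases before the start, on the opposite strand, and the AP-1 letters 122 to 116 bases before it. The RefSeq promoter table held 7 promoters of 6 of the receptor genes, Cd160 having 2, and no entry for Lag3 and Cd200r1. The NFAT letters are in 5 of those 7 promoters and in 55.6% of 32851 mouse promoters of the same length. The RUNX letters are in 4 of the 7 against 14%, the AP-1 letters in 2 against 6.75%, the T-box letters in 2 against 12.3% and the TCF letters in 1 against 13.8%. Both promoters of Cd160 hold the RUNX and the T-box letters, and 1 of them holds the TCF letters. No other receptor promoter holds the T-box or TCF letters. The RUNX letters are otherwise in the promoters of Havcr2 and Cd101. All these matches describe letters, not bound sites.

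Pdcd1 (probe set 17225801, chromosome 1) encodes PD-1, which binds PD-L1 and PD-L2 and recruits phosphatases to its tail. It measured 9.39, 10.45, 9.80 and 9.22 in effector KO, against 10.38, 10.49, 10.25 and 10.28 in effector WT. Effector KO arrays 1, 3 and 4 lay below every effector WT array, and array 2 lay among them. In memory cells it measured 7.12, 9.25, 8.65 and 6.99 in KO, against 9.62, 10.18, 9.58 and 9.46 in WT. The memory groups did not overlap, and KO arrays 1 and 4 were the lowest. The group means were 9.72 ± 0.55 in effector KO, 10.35 ± 0.11 in effector WT, 8.0 ± 1.12 in memory KO and 9.71 ± 0.32 in memory WT (SD, n = 4 arrays each). The KO difference in memory cells was -1.71 ± 0.40 (SE), 3.26-fold lower signal, with an adjusted p of 0.123 from limma. In effector cells it was -0.63 ± 0.40, with an adjusted p of 0.637, and -0.47 without effector KO array 4.

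Ctla4 (probe set 17213478, chromosome 1) encodes CTLA-4, which takes CD80 and CD86 away from the activating receptor CD28. It measured 7.33, 8.08, 8.08 and 7.50 in effector KO, against 8.01, 7.69, 7.92 and 8.08 in effector WT. These groups overlapped. Memory cells gave values of 6.40, 7.23, 6.87 and 5.92 in KO, against 7.41, 7.30, 7.33 and 7.66 in WT. The highest memory KO array, array 2, was just under the lowest memory WT array. The KO difference was -0.82 ± 0.23 in memory cells (SE, adjusted p = 0.2 from limma) and -0.18 ± 0.23 in effector cells (adjusted p = 0.836).

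Lag3 (probe set 17470976, chromosome 6) encodes a CD4-like receptor that binds MHC class II. It measured 9.63, 9.94, 9.63 and 9.52 in effector KO, against 9.83, 10.01, 9.83 and 9.87 in effector WT. The effector groups lay close together and overlapped. Memory cells gave 7.10, 8.09, 8.37 and 7.06 in KO, against 8.90, 9.78, 8.98 and 8.43 in WT. The memory groups did not overlap, although the highest KO array, array 3, came close to the lowest WT array, array 4. The KO difference was -1.37 ± 0.28 in memory cells, 2.58-fold lower signal (SE, adjusted p = 0.0754 from limma), and -0.21 ± 0.28 in effector cells (adjusted p = 0.843).

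Havcr2 (probe set 17248809, chromosome 11) encodes TIM-3, a receptor of the TIM family that marks strongly stimulated T cells. It measured 9.07, 9.56, 9.46 and 7.59 in effector KO, against 9.67, 9.69, 9.81 and 9.66 in effector WT. The effector groups did not overlap, and KO array 4 was far below the other KO arrays. For memory cells the values were 5.50, 7.15, 7.54 and 6.37 in KO, against 8.42, 9.07, 8.65 and 8.26 in WT. Again no KO array reached the WT arrays. The KO difference in memory cells was -1.97 ± 0.41, 3.91-fold lower signal (SE, adjusted p = 0.0797 from limma). In effector cells it was -0.79 ± 0.41 (adjusted p = 0.577), and -0.35 without effector KO array 4.

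Cd244a (probe set 17219382, chromosome 1) encodes 2B4, a receptor of the SLAM family that binds CD48 and signals through the adaptor SAP. It measured 5.64, 8.75, 7.69 and 6.54 in effector KO, against 8.73, 9.48, 8.38 and 9.27 in effector WT. The effector KO arrays spread widest here, with array 2 inside the WT range and the others below it. In memory cells it measured 6.39, 6.16, 5.76 and 5.49 in KO, against 7.44, 8.72, 7.28 and 7.23 in WT. The memory groups were well separated, and memory WT array 2 stood above the other WT arrays. The KO difference was -1.81 ± 0.51 in effector cells (SE, adjusted p = 0.385 from limma) and -1.72 ± 0.51 in memory cells (adjusted p = 0.216). Without effector KO array 2 the effector difference was -2.34 and passed (adjusted p = 0.0441). That fit called 27 of all genes lower in effector KO, against 4 as reported. The effector difference was -1.60 without array 4.

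Cd160 (probe set 17408123, chromosome 3) encodes a receptor that is anchored by a lipid and binds HVEM. It measured 6.51, 7.61, 7.01 and 6.95 in effector KO, against 7.27, 7.28, 7.12 and 7.64 in effector WT. It measured 7.01, 6.47, 6.35 and 6.94 in memory KO, against 6.65, 7.01, 6.49 and 6.56 in memory WT. KO and WT arrays overlapped in both subsets, with effector KO arrays 1, 3 and 4 under the effector WT arrays. The KO difference was -0.31 ± 0.21 in effector cells (SE, adjusted p = 0.646 from limma). In memory cells it was 0.01 ± 0.21 (adjusted p = 0.987), with a 95% interval from -0.43 to 0.45.

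Cd200r1 (probe set 17325861, chromosome 16) encodes the receptor for CD200 and recruits Dok adaptors to its tail. It measured 5.65, 6.95, 5.94 and 4.53 in effector KO, against 7.20, 7.36, 6.96 and 7.48 in effector WT. The effector groups did not overlap, with KO array 2 next to WT array 3. In memory cells it measured 4.07, 4.28, 4.48 and 4.08 in KO, against 5.79, 5.85, 5.87 and 5.59 in WT. The memory groups were each narrow and far apart. Its signal was above the median of its array on 14 of 16 arrays and on 2 of the 4 memory KO arrays, so memory KO values are close to the array medians. The KO difference was -1.48 ± 0.32 in effector cells (SE, adjusted p = 0.242 from limma) and -1.55 ± 0.32 in memory cells (adjusted p = 0.0797). Without effector KO array 2 the effector difference was -1.88 and passed (adjusted p = 0.00474). That fit called 27 of all genes lower in effector KO, against 4 as reported. The effector difference was -1.07 without array 4.

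Cd101 (probe set 17408470, chromosome 3) encodes an immunoglobulin-domain receptor that in mice marks terminally exhausted CD8 T cells. It measured 7.34, 8.20, 7.71 and 6.57 in effector KO, against 7.80, 7.98, 8.16 and 8.25 in effector WT. Effector KO array 2 lay inside the WT range and the other KO arrays lay below it. The memory values were 6.37, 6.53, 6.44 and 6.13 in KO, against 6.93, 7.10, 7.21 and 7.10 in WT. The memory groups did not overlap. The KO difference was -0.59 ± 0.24 in effector cells (SE, adjusted p = 0.488 from limma) and -0.72 ± 0.24 in memory cells (adjusted p = 0.261).

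**Figure D1:**
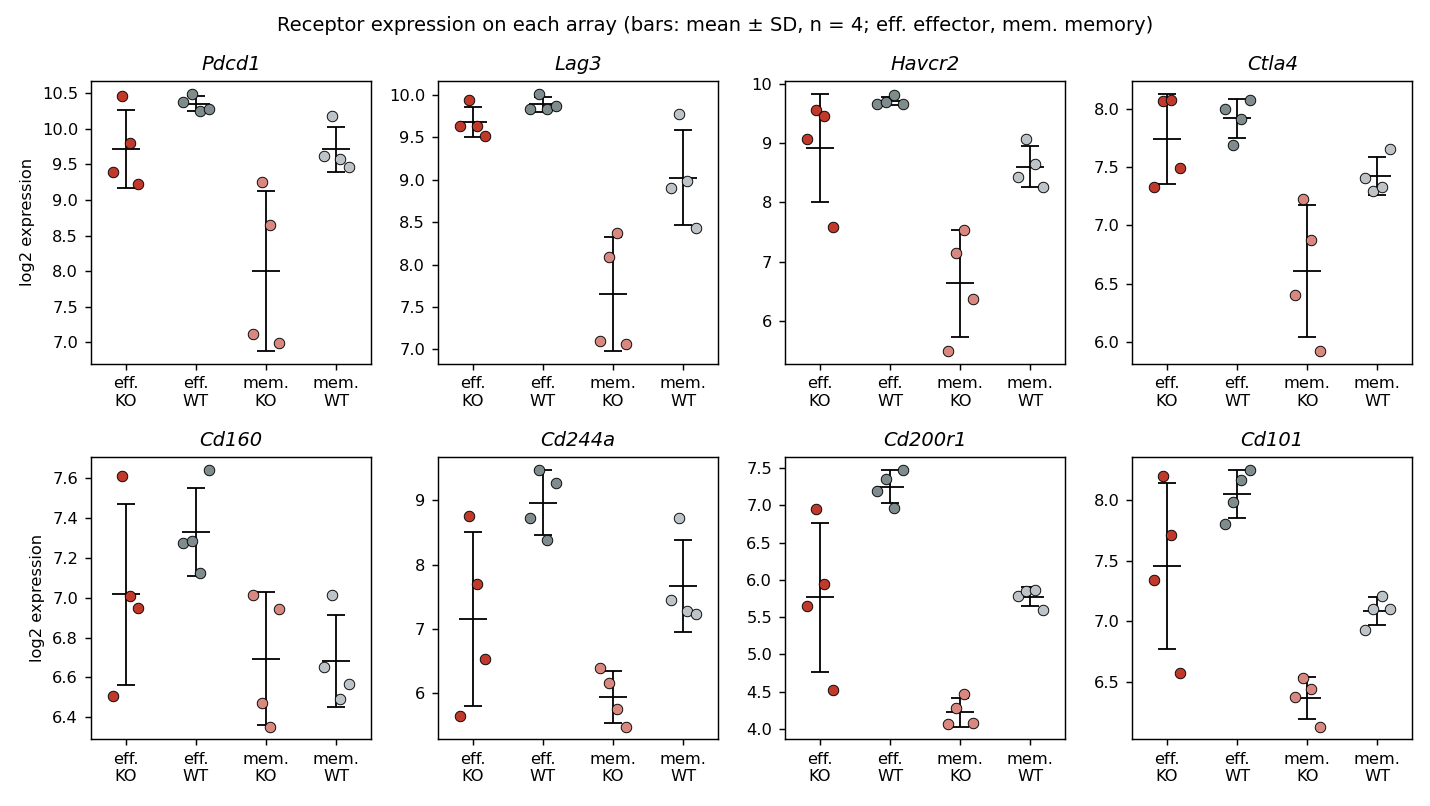
Log2 expression of each receptor gene (vertical axis) on every array, by group; points are arrays and bars are group means with SD (n = 4). Memory KO arrays lie below all memory WT arrays for 7 of 8 genes, Cd160 being the exception, while the effector groups overlap for 6 of 8.

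In memory cells, RNA of 7 of the 8 receptor genes was lower on every KO array than on any WT array, and none of these differences passed the test over all genes. The 7 are Pdcd1, Lag3, Havcr2, Ctla4, Cd244a, Cd200r1 and Cd101. Their KO differences ran from -0.72 for Cd101 to -1.97 for Havcr2, and Cd160 was at 0.01. Of all genes, 3.37% had all 4 KO arrays below all 4 WT arrays. Each of the 7 had an exact two-sided permutation p of 0.0286, the smallest that 4 arrays against 4 can give. At an unadjusted p under 0.05, 7 of 8 were lower, against 6.08% of all genes. At an adjusted p under 0.05, 0 of 8 were lower, against 0.0766% of all genes. The median difference was -1.46 over the 8 genes and 0.02 over all genes. Without memory KO array 3, Pdcd1, Lag3, Havcr2 and Cd200r1 passed, with differences of -1.92, -1.61, -2.27 and -1.63. Leaving out other single arrays gave 0 to 2 genes: Cd200r1 without effector KO array 2, Havcr2 and Cd200r1 without effector KO array 4, Pdcd1 without memory KO array 2 and Lag3 without memory WT array 4. A fit of the 8 memory arrays alone gave 1, Cd200r1. Over all genes, 17 were called lower in KO as reported. That count was 213 without memory KO array 3, 70 without effector KO array 4 and 5 in the fit of memory arrays alone.

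Marker genes of other cells and of cell division were measured on the same memory arrays. The mean over 11 measured B cell and CLL markers was 4.76 to 5.25 in memory KO, against 5.21 to 6.07 in memory WT. Of these markers 10 of 11 were below 0 in KO minus WT, and Cd22, a B cell surface receptor, fell (-1.04, adjusted p = 0.0145 from limma), a call lost without memory KO array 1 or memory WT array 2. Ighm, the brightest of these markers, went the other way, at 11.33 in memory KO against 11.09 in memory WT. Cr2 and Fcer2a, both B cell receptors, were above the array median on 0 of 16 arrays. The mean over 11 cell division genes was 7.22 to 8.75 in memory KO, against 8.45 to 8.79 in memory WT, with 11 of 11 below 0, none past the test and 10 at an unadjusted p under 0.05. Over 8 markers of CD4 and regulatory T cells it was 5.56 to 6.19 in memory KO and 6.21 to 6.43 in memory WT, with 6 of 8 below 0. In memory KO against memory WT, Ikzf2 averaged 6.28 against 7.69 and Tnfrsf4 7.15 against 8.53. Foxp3 averaged 5.52 against 5.56, and Zbtb7b was higher in KO, at 5.11 against 4.70. The CD8 identity list of 8 genes ran from 10.77 to 10.87 in memory KO and from 10.78 to 10.87 in memory WT. Natural killer markers, 5 of them, had means of 6.81 to 6.88 in memory KO and 6.66 to 6.97 in memory WT. Single markers moved both ways, with 3 of 5 below 0 and 0 past the test. Tyrobp averaged 7.05 in memory KO against 7.70 in memory WT, and Fcer1g 7.68 against 8.03. Klrb1c was higher in KO, at 5.78 against 4.93, as was Ncr1, at 4.18 against 3.81. For 12 myeloid markers the means were 6.26 to 7.0 in memory KO and 6.41 to 6.94 in memory WT. The part of these genes in the receptor differences was not tested. In bulk RNA, fewer cells of a type and less RNA per cell cannot be told apart.

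In effector cells the receptor genes also measured lower in KO on average, and none passed. All 8 differences were below 0, from -0.18 for Ctla4 to -1.81 for Cd244a, with a median of -0.61 against 0.01 over all genes. For Havcr2 and Cd200r1 every KO array lay below every WT array, which held for 1.94% of all genes. At an unadjusted p under 0.05, Cd244a, Cd200r1 and Cd101 were lower, 3 of 8, against 4.32% of all genes. At an adjusted p under 0.05, 0 of 8 were lower, against 0.018%. Without effector KO array 4, the difference was -0.15 for Lag3, -0.10 for Ctla4, -0.29 for Cd160 and -0.30 for Cd101. The B cell and CLL marker mean was 4.14 to 4.58 in effector KO and 4.08 to 4.29 in effector WT. The cell division mean was 8.47 to 9.08 in effector KO and 8.75 to 8.91 in effector WT. Markers of CD4 and regulatory T cells, 8 in number, had means of 5.65 to 6.34 in effector KO and 6.13 to 6.25 in effector WT. The part of these lists and of the Il7r difference in the receptor values was not tested.

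Averaged over both subsets, Cd200r1 fell in KO by 1.52 ± 0.23 on the log2 scale (SE), 2.86-fold lower signal. Its adjusted p from limma was 0.00741 and its exact permutation p within subsets was 0.000408, the smallest that 16 independent arrays allow. Both treat effector and memory arrays as independent, and the labels do not say whether a number marks 1 mouse. With same-number effector and memory arrays of a genotype averaged, 4 KO values against 4 WT values, the difference stayed at -1.52 ± 0.23 and did not pass (adjusted p = 0.0811 from limma). Its exact permutation p was then 0.0286, the smallest for 4 against 4. KO arrays lay below WT arrays in 4 of 4 cases in each subset. In the fit of 16 arrays 1 of 8 passed, against 0.113% of all genes that were lower in KO. Cd200r1 kept its direction in 23 of 23 alternatives and passed in 22 of them, all but the averaging of same-number arrays, with adjusted p between 0.00013 and 0.0811. Its difference was -1.31 without effector KO array 4. Havcr2 differed by -1.38 and Cd244a by -1.76, each with an adjusted p of 0.0549. Pdcd1 differed by -1.17 (adjusted p = 0.0882), Lag3 by -0.79 (0.0956), Cd101 by -0.66 (0.0981), Ctla4 by -0.50 (0.184) and Cd160 by -0.15 (0.684). Without effector KO array 2, Pdcd1, Havcr2, Cd244a and Cd101 passed as well. Without memory KO array 3, Pdcd1, Lag3, Havcr2 and Cd244a passed as well, and without memory KO array 2, Pdcd1 did. Over all genes, 25 were called lower in KO as reported. That count was 252 without effector KO array 2, 142 without memory KO array 3 and 39 without memory KO array 2.

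The KO differences were then compared between the subsets, as effector difference minus memory difference. None of the 8 passed, against 0% of all genes, and 1 of 8 was past an unadjusted p of 0.05, against 5.84% of all genes. That gene was Lag3, at 1.16 ± 0.40 (SE), with an adjusted p of 0.841 from limma. Pdcd1 was at 1.07 (adjusted p = 0.843) and Havcr2 at 1.18 (adjusted p = 0.841), and Ctla4 at 0.64, Cd101 at 0.12 and Cd160 at -0.33. Cd244a was at -0.09 with a 95% interval from -1.61 to 1.44, and Cd200r1 at 0.07 with one from -0.91 to 1.04. The sign for Cd244a, Cd200r1 and Cd101 turned when some single arrays were left out.

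**Figure D2:**
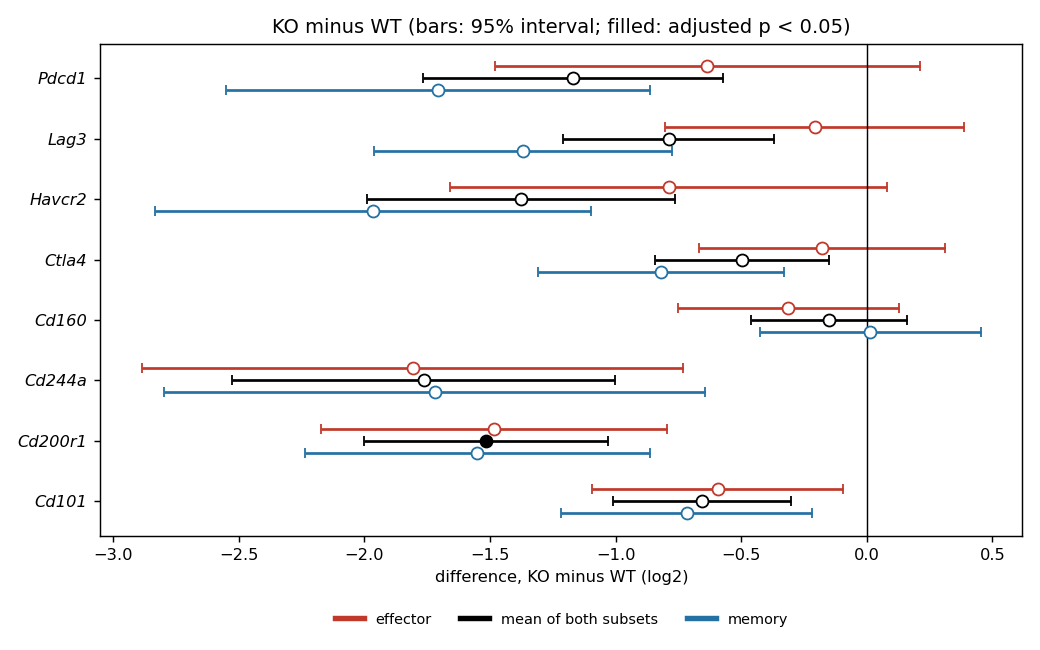
KO minus WT on the log2 scale (horizontal axis) for each receptor gene in effector cells, averaged over subsets and in memory cells; points are limma estimates, bars are 95% intervals, and filled points passed an adjusted p under 0.05. In this fit of 16 arrays only Cd200r1 in the average is filled, at -1.52, and Cd160 lies near 0 in memory cells.

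Single KO arrays differed in how far they lay from WT. Of the 8 receptors, 8, 2, 7 and 8 were below all effector WT arrays on effector KO arrays 1 to 4, and 7, 8, 8 and 7 were below all memory WT arrays on memory KO arrays 1 to 4. The matching share of all genes was not computed for single arrays. These counts therefore compare arrays with each other and do not set the receptors apart from other genes. The median difference of an array from the WT mean was -0.77, 0.08, -0.33 and -1.31 on effector KO arrays 1 to 4. On memory KO arrays 1 to 4 it was -1.49, -0.74, -0.86 and -1.83. Effector KO array 2 thus lay with WT for most receptors, while Cd200r1 and Havcr2 were still under WT on it. Pdcd1, Lag3, Havcr2 and Ctla4 were lowest on memory KO arrays 1 and 4. The cell division mean on memory KO arrays 1 to 4 was 7.45, 8.13, 8.75 and 7.22, also lowest on arrays 1 and 4. Cd200r1 was low on all 4 memory KO arrays, at -1.71, -1.5, -1.30 and -1.70 from the WT mean.

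**Figure D3:**
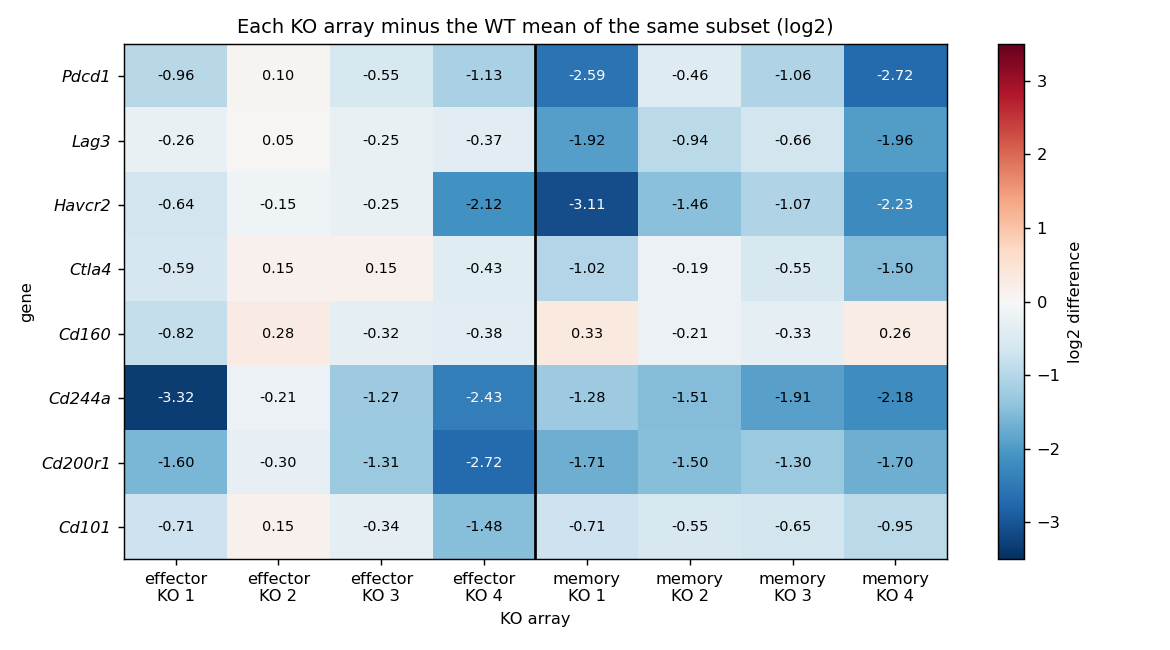
Difference of each KO array from the mean of the WT arrays of its subset (log2) for each receptor gene; colour gives the difference. Effector KO array 2 is near 0 for most genes, at a median of 0.08, and memory KO arrays 1 and 4 are the lowest, at medians of -1.49 and -1.83.

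Receptor RNA was higher in effector than in memory cells in KO mice, where 6 of the 8 genes passed. Lag3 was higher by 2.03 ± 0.28 (SE, 4.07-fold, adjusted p = 0.00037 from limma) and Havcr2 by 2.28 ± 0.41 (4.86-fold, adjusted p = 0.00266). Pdcd1 was higher by 1.71 ± 0.40, Cd200r1 by 1.54 ± 0.32, Ctla4 by 1.14 ± 0.23 and Cd101 by 1.09 ± 0.24, with adjusted p of 0.0144, 0.00782, 0.00617 and 0.00946. Cd244a differed by 1.21 ± 0.51 (adjusted p = 0.182) and Cd160 by 0.32 ± 0.21 (adjusted p = 0.426). The share of all genes higher in effector KO was 3.14%. Effector KO arrays lay above all memory KO arrays for Lag3, Havcr2, Ctla4, Cd200r1 and Cd101, 5 of 8, against 4.06% of all genes. Without memory KO array 4, Pdcd1 differed by 1.37 and did not pass (adjusted p = 0.0555). Without effector KO array 4, Havcr2 differed by 2.72, Cd200r1 by 1.955 and Cd101 by 1.38. Without effector KO array 1, Cd244a differed by 1.71 and passed (adjusted p = 0.0367). In a fit of the 8 KO arrays alone, Lag3 and Havcr2 passed, 2 of 8. That fit also called fewer of all genes higher in effector KO, 183 against 696 as reported. Cell division genes averaged 8.47 to 9.08 in effector KO, against 7.22 to 8.75 in memory KO, with 5 of 11 higher. Natural killer markers averaged 5.85 to 6.00 in effector KO, against 6.81 to 6.88 in memory KO, with Fcer1g, Klrb1c and Tyrobp lower and Eomes higher. B cell and CLL markers averaged 4.14 to 4.58 in effector KO, against 4.76 to 5.25 in memory KO. Of these, 10 of 11 were below 0, and Ighm and Cd79b passed as lower. Of all 22180 genes, 953 were called lower in effector KO. Myeloid markers averaged 6.16 to 6.40 in effector KO, against 6.26 to 7.0 in memory KO, with Csf1r and Ly6c2 lower and Cd68 higher. The part of these lists was not tested.

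In WT mice the order of the subsets was the same for all 8 genes, and 2 passed. Cd200r1 was higher in effector WT than in memory WT by 1.47 ± 0.32 (SE, adjusted p = 0.0183 from limma) and Cd101 by 0.96 ± 0.24 (adjusted p = 0.0338). The share of all genes higher in effector WT was 0.92%. Effector WT arrays lay above all memory WT arrays for 7 of 8 genes, all but Cd244a, against 6.41% of all genes. Havcr2 differed by 1.10 (adjusted p = 0.198), Lag3 by 0.87 (0.122), Cd160 by 0.65 (0.114), Pdcd1 by 0.64 (0.537), Ctla4 by 0.50 (0.341) and Cd244a by 1.30 (0.232). The Cd200r1 call was lost without effector WT array 2 or 4 or memory WT array 1, with adjusted p from 0.0538 to 0.066. The Cd101 call was lost without effector WT array 2, 3 or 4 or any 1 of the memory WT arrays, with adjusted p from 0.0602 to 0.113. Without memory WT array 2, Lag3 differed by 1.12 and passed (adjusted p = 0.0294). In a fit of the 8 WT arrays alone, Pdcd1, Havcr2, Ctla4, Cd160, Cd200r1 and Cd101 passed, 6 of 8. That fit also called more of all genes higher in effector WT, 546 against 204 as reported. The comparisons in KO and in WT share no array, whereas the KO comparison within memory cells and the subset comparison within KO mice share the memory KO arrays. B cell and CLL markers were lower in effector WT than in memory WT, with 9 of 11 past the test. Of all 22180 genes, 511 were called lower in effector WT. The marker means were 4.08 to 4.29 in effector WT, against 5.21 to 6.07 in memory WT. Of 5 natural killer markers Fcer1g and Tyrobp were lower, with means of 5.70 to 6.00 in effector WT, against 6.66 to 6.97 in memory WT. Of 12 myeloid markers Ly6c2, Csf1r and Lyz2 were lower, with means of 6.07 to 6.22 in effector WT, against 6.41 to 6.94 in memory WT. The part of these lists in the receptor levels was not tested.

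**Figure D4:**
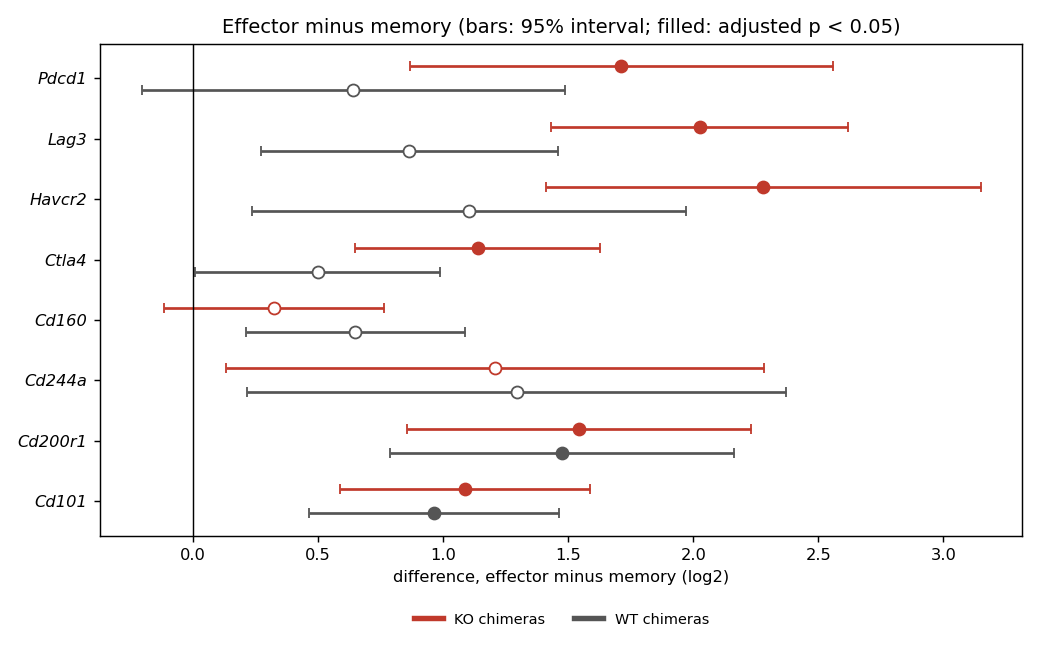
Effector minus memory on the log2 scale (horizontal axis) for each receptor gene within KO and within WT mice; points are limma estimates, bars are 95% intervals, filled points passed. All estimates are above 0, with 6 filled in KO mice and 2 in WT mice.

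Across the 4 groups each gene can be placed in order by its mean. Havcr2 averaged 8.92 ± 0.91 in effector KO, 9.71 ± 0.07 in effector WT, 6.64 ± 0.90 in memory KO and 8.60 ± 0.35 in memory WT (SD, n = 4 arrays each). Lag3 averaged 9.68 ± 0.18 in effector KO, 9.89 ± 0.08 in effector WT, 7.65 ± 0.67 in memory KO and 9.02 ± 0.56 in memory WT. For both, effector KO and memory WT are neighbours with memory KO below them. Cd244a averaged 7.16 ± 1.36 in effector KO, 8.96 ± 0.50 in effector WT, 5.95 ± 0.41 in memory KO and 7.67 ± 0.71 in memory WT. Cd200r1 averaged 5.77 ± 1.00 in effector KO and 5.78 ± 0.13 in memory WT, which do not differ beyond their spread, against 7.25 ± 0.22 in effector WT and 4.23 ± 0.19 in memory KO. Cd101 averaged 7.46 ± 0.69 in effector KO, 8.05 ± 0.20 in effector WT, 6.37 ± 0.17 in memory KO and 7.09 ± 0.12 in memory WT. The means of Ctla4 were 7.74 ± 0.39 in effector KO, 7.92 ± 0.17 in effector WT, 6.61 ± 0.57 in memory KO and 7.42 ± 0.16 in memory WT. Memory KO was the lowest group for 7 of the 8 genes. For Cd160 the means were 7.02 ± 0.45 in effector KO, 7.33 ± 0.22 in effector WT, 6.69 ± 0.33 in memory KO and 6.68 ± 0.23 in memory WT, and the memory groups did not differ beyond their spread.

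The ligands of these receptors, 12 genes and all measured, showed 0 members past the limma test in KO against WT in either subset, with 6 at an unadjusted p under 0.05 in effector cells and 4 in memory cells. Counts at an unadjusted p, here and for the lists below, take both directions. The share of all genes in both directions was not computed, so these counts are given as a description only. Cd200, the ligand of the receptor encoded by Cd200r1, measured 5.92, 6.27, 5.89 and 4.44 in effector KO, against 6.82, 7.73, 6.63 and 6.30 in effector WT. It measured 4.16, 5.29, 6.34 and 4.10 in memory KO, against 6.73, 8.05, 6.46 and 6.51 in memory WT. It was thus lower on every KO array than on any WT array in each subset, as was its receptor. Of all genes, 1.94% were so placed in effector cells and 3.37% in memory cells. The gaps for Cd200 were narrow. The highest KO array was at 6.27 against a lowest WT array of 6.30 in effector cells, and 6.34 against 6.46 in memory cells. Its averaged difference was -1.60 ± 0.36 (SE, adjusted p = 0.0673 from limma). Tnfrsf14, which encodes the CD160 ligand HVEM, differed by 0.44 ± 0.10 in the other direction (adjusted p = 0.0673). Between subsets, Hmgb1, a nuclear protein that TIM-3 can bind, was higher in effector KO than in memory KO by 0.32 (adjusted p = 0.0363), a call that was lost when some single arrays were left out.

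Signal partners of the receptor tails, 11 measured of 12, had 0 members past the limma test in KO against WT, with 1 at an unadjusted p under 0.05 in effector cells and 4 in memory cells. In effector KO against memory KO 4 were higher (Rasa1, Sh2d1a, Dok1 and Fyn) and 1 was lower (Ptpn6). Of all 22180 genes, 696 were called higher and 953 lower in that comparison. Ptpn6, which encodes the phosphatase SHP-1, was lower by 0.94 ± 0.16 (SE) in effector KO than in memory KO (limma estimate -0.94, adjusted p = 0.00154) and stood at -0.95 in effector WT against memory WT (adjusted p = 0.0023). Its values were 8.97, 8.93, 8.68 and 9.14 in effector KO and 9.96, 9.81, 9.49 and 10.21 in memory KO. Rasa1, the RasGAP partner of CD200R, differed by 0.61 (adjusted p = 0.00247), and Sh2d1a, which encodes the 2B4 adaptor SAP, by 0.54 (adjusted p = 0.0112). The calls for Dok1 and Fyn were lost when some single arrays were left out.

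Other inhibitory receptors, 10 measured, had 0 past the limma test in KO against WT, with 3 at an unadjusted p under 0.05 in effector cells and 4 in memory cells. Tigit, whose protein binds CD155, measured 7.24, 9.18, 9.24 and 7.99 in memory KO, against 10.08, 10.45, 10.01 and 10.03 in memory WT. Its difference was -1.73 ± 0.32 (SE, adjusted p = 0.052 from limma). The list as a whole did not follow Tigit. In each subset 4 of 10 were below 0 in KO minus WT, with medians of 0.13 in effector and 0.15 in memory cells. Cd300a averaged 5.12 in effector KO against 4.80 in effector WT, and 5.28 in memory KO against 4.89 in memory WT. Lair1 averaged 6.72 against 6.04 in effector cells and 7.23 against 6.60 in memory cells, KO given first. In effector KO against memory KO, Tigit (1.63), Lilrb4a (1.48) and Klrg1 (0.94) were higher, and Btla, a receptor that shares HVEM with CD160, was lower (-0.94, adjusted p = 0.0029). In WT mice Lilrb4a passed, at 1.18 (adjusted p = 0.00265). Among 12 family relatives of the receptors, 0 passed in KO against WT (4 at an unadjusted p under 0.05 in effector cells and 3 in memory cells), and Slamf6 (-0.57) and Ly9 (-0.43), SLAM relatives of 2B4, were lower in effector KO than in memory KO. Slamf6 was lower in WT effector cells too, at -0.98 (adjusted p = 0.00107). In KO mice the calls for Klrg1, Slamf6 and Ly9 were lost when some single arrays were left out.

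Regulators of the exhaustion programme, 13 measured of 14, had 0 past the limma test in KO against WT, with 3 at an unadjusted p under 0.05 in effector cells and 7 in memory cells. Their median was 0.11 in effector cells, with 6 of 13 below 0, and -0.51 in memory cells, with 9 of 13 below 0. Nr4a2, a nuclear receptor induced by antigen receptor signals, measured 6.57, 7.96, 8.07 and 6.29 in memory KO, against 8.78, 9.68, 8.61 and 8.68 in memory WT. Its difference was -1.71 ± 0.45 (SE, adjusted p = 0.17 from limma). Prdm1, which encodes BLIMP-1, measured 7.23, 7.74, 7.85 and 6.82 in memory KO, against 8.13, 8.74, 8.40 and 8.01 in memory WT, a difference of -0.91 (adjusted p = 0.0887). Tox, which encodes a factor that maintains exhausted cells, was at -0.69 (adjusted p = 0.143). Tbx21, which encodes T-bet, went the other way in memory cells, averaging 8.78 in KO against 8.19 in WT. In effector cells Tbx21 averaged 7.69 in KO against 6.92 in WT, Nfatc2 7.25 against 6.95 and Maf 8.18 against 7.27. Irf4 was lower in effector KO, at 7.28 against 7.76. In effector KO against memory KO, 7 regulators were higher and 2 lower, against 696 and 953 of all 22180 genes. Those higher were Maf (2.58), Nr4a2 (1.65), Prdm1 (1.5), Tox (0.86), Batf (0.71), Nr4a3 (0.67) and Eomes (0.55). Those lower were Tbx21 (-1.10) and Foxo1 (-0.36). In WT mice Prdm1 was higher by 0.79 (adjusted p = 0.0392) and Tbx21 was lower (-1.27, adjusted p = 0.0202). The calls for Nr4a2, Nr4a3, Batf, Tbx21 and Foxo1 in KO mice, and both calls in WT mice, were lost when some single arrays were left out.

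Profiles over the 16 arrays, each centred on its own mean, were compared by root mean square distance with 10387 genes, as a description. The nearest to Pdcd1 were Tigit (0.26), Nr4a2 (0.33) and Rgs16 (0.35). Lag3 lay nearest to Ifng (0.20), Ccl3 (0.22) and Entpd1 (0.27), and Havcr2 to Itih5 (0.30), Rgs16 (0.37) and Nr4a2 (0.39). Ctla4 lay nearest to Crmp1 (0.21), Bhlhe40 (0.22) and Osbpl3 (0.24), and Cd101 to Abcb9 (0.21), Hip1 (0.22) and Cdc14a (0.26). Cd200r1 lay nearest to Chn2 (0.39), Itih5 (0.40) and Lat2 (0.49), and Cd244a to Ccrl2 (0.54), Slc37a2 (0.58) and Cd200r1 (0.58). Cd160, whose profile varied least, lay nearest to Eif4g3 (0.20), Traf5 (0.21) and Ccdc130 (0.22). Within the 8 genes, the closest pair was Ctla4 and Cd101 (0.35), then Pdcd1 and Lag3 (0.39), and the farthest was Havcr2 and Cd160 (1.15). Arrays share the 4 groups, so distances mix group differences and array differences.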

How the data were processed

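RNA of 16 sorted spleen CD8 T cell samples was measured, and 1 ng was labelled with the WT Pico kit, per the labels' protocols. The authors deposited 1 log2 value per probe set; the log base was inferred from the range of 0.7365 to 14.0453, and the normalization is not given in the sources used here. Of 41345 probe sets, 23521 have 1 symbol, 1814 have several and 16010 are not listed in the annotation table; the brightest per gene left 22180 genes, and Entrez IDs matched 23328 probe sets to the RefSeq table (GRCm38.p6). No dim-probe filter was applied, and no detection call was used.

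limma 3.58.1 in R 4.3.3 fitted 4 group means to all 16 arrays (12 residual degrees of freedom, prior 4.23), with Benjamini-Hochberg adjustment over all genes in each of 6 comparisons. Exact two-sided permutation tests served single genes. Array number limits the precision. The code was tested on simulated data. Named genes are the 8 receptors, up to 4 per list with the smallest p in a comparison, the 3 nearest profiles per receptor (predicted genes left out) and Il4i1, Il7r and Cd44. List genes beyond these are named where a count of calls needed them, after their values were seen. The receptors and lists were chosen with earlier results of these data known. Lck and Tcf7 had no probe set of their own alone. Alternatives were quantile normalization, array weights, an intensity trend with a robust prior, a replicate block, other probe set rules, fewer genes or arrays, leaving out each array and, added after seeing the data, averaging same-number arrays within genotype.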

Additional observations from a re-analysis of the deposited data

Results flagged for a closer look

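Cd244a in memory WT array 2 measured 8.72, the highest of its 4 arrays, where the others lay between 7.23 and 7.44. The gap passed Dixon's 95% limit for 4 values, and 32 groups were examined, of which chance passes about 1 in 20.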

How the results depend on the processing

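Counts are of receptor genes past the test. For KO against WT in memory cells, 0 as reported, array weights gave 2 and the replicate block 4. A fit of the compared arrays alone gave 1. Over all genes, 17 were called lower as reported, 30 with array weights, 90 with the block and 5 in that fit. Averaged over subsets, 1 as reported, testing only genes above the median gene gave 3, array weights 2 and the replicate block 6. The averaging of same-number arrays within genotype, chosen after seeing the data, gave 0. Over all genes, 25 were called lower as reported, and 62 of the 11090 genes above the median gene. That count was 37 with array weights, 275 with the block and 3 with the averaging. Effector KO against memory KO, 6 as reported, gave 7 with array weights, which added Cd244a, and 2 in a fit of its own arrays. Over all genes, 696 were called higher in effector KO as reported, 929 with array weights and 183 in that fit. Effector WT against memory WT, 2 as reported, gave 5 with array weights and 6 in a fit of its own arrays. The replicate block gave 3 and added Lag3. Over all genes, 204 were called higher in effector WT as reported. That count was 643 with array weights, 546 in the fit of its own arrays and 228 with the block. Leaving out each array gave 0 to 2 for effector KO against WT, 0 to 4 for memory KO against WT, 1 to 5 for the average, 5 to 7 for effector KO against memory KO and 0 to 2 for effector WT against memory WT. The cause of these changes was not tested.

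The replicate numbers were not taken to pair the samples: the labels do not say what a number marks, and not every same-number correlation of deviations was over 0.1. Between effector and memory arrays of 1 genotype, 6 of 8 same-number pairs were over 0.1 (0.0178 to 0.239) and 7 of 8 correlated best with their own number, a hint from the data and not from the design. Between KO and WT arrays, 2 of 8 pairs were over 0.1 (-0.0322 to 0.138) and 4 of 8 correlated best with their own number. A block within genotype gave 6 for effector KO against memory KO and 2 in WT. It called 827 of all genes higher in effector KO and 258 higher in effector WT.

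Cd160 in memory cells ranged from -0.09228 to 0.1276 over arrays left out, and the difference of KO effects ranged from -0.6202 to 0.4172 for Cd244a, from -0.3265 to 0.4805 for Cd200r1 and from -0.1255 to 0.4174 for Cd101. With array weights it was 0.2952 for Cd244a. Over all genes, effector KO against WT gave 12 calls as reported (4 to 42 over all alternatives), memory KO against WT 25 (7 to 249), the average 43 (9 to 389), effector KO against memory KO 1649 (600 to 2052) and effector WT against memory WT 715 (359 to 1644). No detection call says whether low signals, such as Cd200r1 in memory KO, were above background.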
